A study of Mus musculus with 8 samples.

Results

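Described here are 38 factors of ribosome biogenesis, listed by name for their place in the pathway, with earlier results of these data known. They were read in mouse blood progenitors that had received the transcription factor EBF1 or an altered form of it. Each gene was read from array probes that carry its name, and the brightest probe stood for the gene. All 38 were measured and lay well above background on all 8 arrays, among 16330 genes tested. By role the members are 3 subunits of RNA polymerase I, 3 proteins of box C/D and 4 of box H/ACA small nucleolar particles, 6 nucleolar proteins with several functions, 13 factors of the small subunit and 9 of the large subunit.

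A ribosome is assembled in the nucleolus, where RNA polymerase I transcribes the long precursor of the ribosomal RNAs. Box C/D particles methylate that precursor, box H/ACA particles convert some of its uridines to pseudouridine, and separate sets of factors then fold, cut and export the small and the large subunit. Growing and dividing cells spend much of their synthesis on this pathway, and transcription factors of the MYC family are known to activate many of its genes.

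The cells were c-Kit+ fetal liver progenitors of Ebf1-/- mice on the C57Bl/6 background, so every group lacked the endogenous EBF1, a factor required for B-lymphocyte development. They were kept on OP9, a mouse stromal feeder line, with stem cell factor and Flt3 ligand at 10 ng/ml each and interleukin 7 at 5 ng/ml. The cells were transduced with a pMys retrovirus that expressed GFP alone (Empty, n = 2 arrays) or together with EBF1wt (n = 3) or with EBF1-H240A (n = 3), and GFP+ cells were collected after 36 h. In EBF1-H240A an alanine stands in place of a histidine, a substitution known to impair contact with the CCR4-NOT subunit CNOT3. The protein came from a retroviral promoter, not from the Ebf1 locus, and RNA of the mouse feeder cells would be read by the same probes. The labels do not say whether replicates were separate cultures or animals, and p-values then reflect the spread among these arrays, which may be technical.

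Each array was scaled to a common 75th percentile, and values are log2 of the scaled intensity. A value is therefore relative to the other genes on the array, and a change in total RNA per cell was not measured. Because probes differ in brightness, signals are compared between arrays for a single probe and not between genes. In these bulk samples, fewer cells of a type and less RNA per cell cannot be told apart. Differences were tested with limma over all genes, and "fell", "rose" or "called" means a Benjamini-Hochberg adjusted p under 0.05 over the 16330 genes. A difference of -1 on the log2 scale is a halving, and errors given as SE are standard errors of that fit.

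The share of probes well above background ran from 54.6% to 59.7% over the arrays, and arrays of a group correlated at r = 0.991 to 0.995 across genes. The Ebf1 probe read 10.10 and 10.19 with Empty, 10.18, 10.17 and 10.19 with EBF1wt, and with EBF1-H240A 10.44, 10.33 and 10.15, and neither protein's difference was called (adjusted p = 0.805 and 0.191, limma). Which part of the Ebf1 transcript this probe reads was not determined. Whether its signal includes RNA from the vector, the altered locus or the feeder cells is therefore not known. The 5 B-lineage markers Vpreb1, Igll1, Cd79a, Cd79b and Blk had a summed scaled signal of 752.5 to 818.4 with Empty, 51490 to 57830 with EBF1wt and 27830 to 31550 with EBF1-H240A. Such a sum is set mostly by the brightest probes. By gene, 5 were called higher with EBF1wt and 4 with EBF1-H240A, and the median differences from Empty were 4.94 and 5.17. Between the proteins 3 of the 5 were called lower with EBF1-H240A, with a median difference of -0.57.

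With EBF1wt, 33 of the 38 members fell, 0 rose and 5 did not pass the test. The median difference from Empty was -0.51, or 70.1% of the Empty level, against -0.04 over all genes tested. Nolc1 fell to 57.2% and Rrp9 to 59.1% of their Empty levels, while Polr1a, Heatr1, Bysl, Pes1 and Rrp1b did not pass. Among all genes 21.2% were called lower and 17.2% were called higher in this comparison. On every EBF1wt array 34 members lay below both Empty arrays, and the same held for 34.8% of all genes.

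With EBF1-H240A, 35 of the 38 members fell, 0 rose and 3 did not pass. The median difference from Empty was -0.65, or 63.7% of the Empty level, against 0.00 over all genes. Nolc1 fell to 49.9% of its Empty level and was the only member (1 of 38) at or under 50% of it, and with EBF1wt 0 members were. The background in this comparison was 23.0% of genes called lower and 21.6% called higher. The EBF1-H240A arrays were all below both Empty arrays for 35 members and for 33.9% of all genes. Both comparisons use the same 2 Empty arrays, so they are not independent of each other.

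Taken array by array, the median over the 38 members relative to the Empty mean was 0.01 and -0.01 on the Empty arrays. It was -0.44, -0.52 and -0.54 with EBF1wt, and with EBF1-H240A -0.66, -0.62 and -0.63. All 6 arrays with EBF1 lay well below both Empty arrays. The 2 slides that carried the arrays each held all 3 groups. Within slide 1 the members' median was -0.53 with EBF1wt and -0.63 with EBF1-H240A, and within slide 2 it was -0.46 and -0.61, although with 1 residual degree of freedom 0 members were called within either slide.

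**Figure D1:**
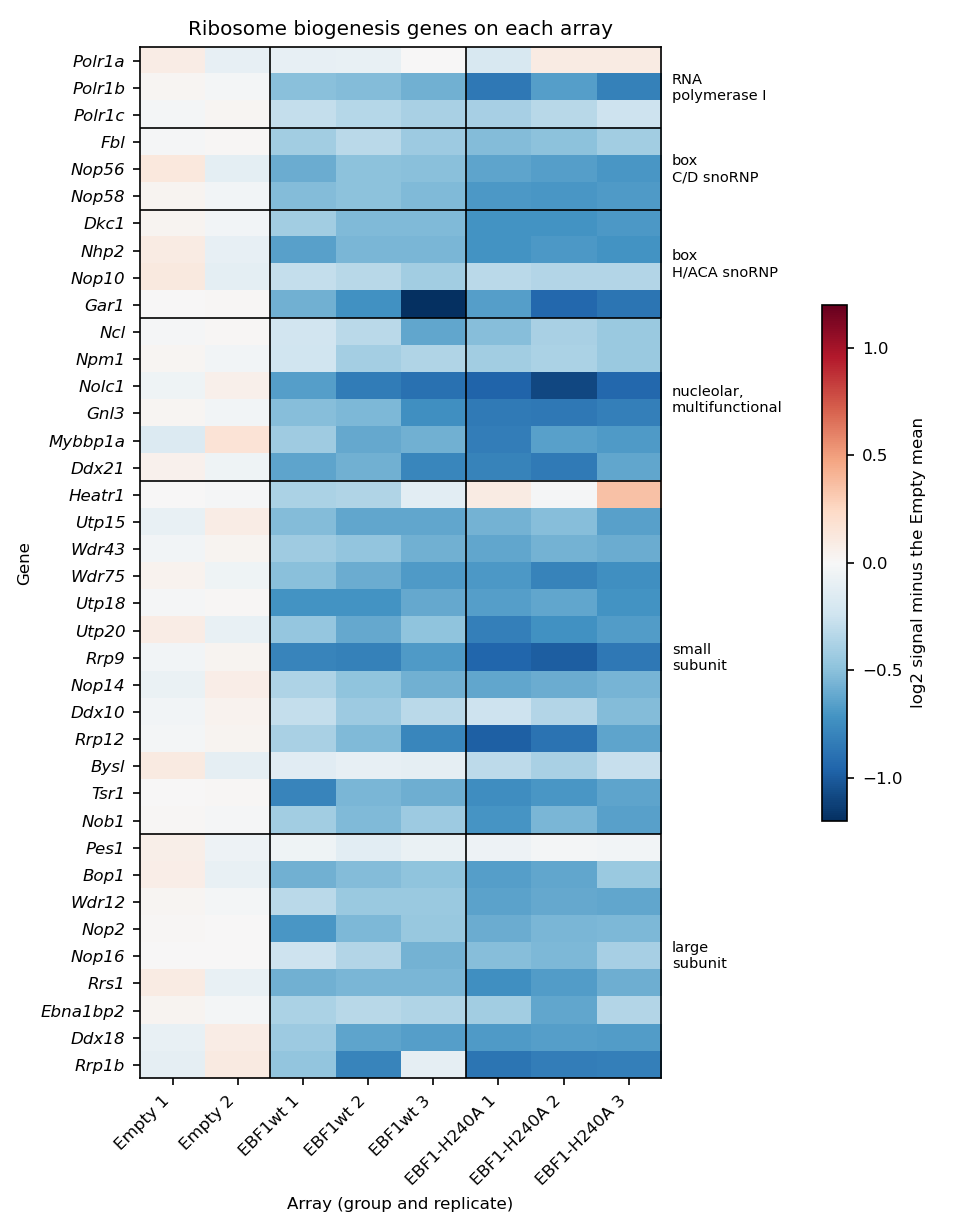
Log2 signal of each of the 38 genes on each of the 8 arrays, minus the mean of the Empty arrays for that gene, with blue for lower and red for higher signal and genes ordered by role. The columns with EBF1wt and EBF1-H240A are blue for most genes, and the rows of Polr1a, Heatr1, Bysl and Pes1 are paler.

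Markers of other cell types moved with the vector as well. Of 8 measured stromal genes 4 were called higher with EBF1wt and 6 with EBF1-H240A, and their summed signal was 737.5 to 764.7 with Empty, 1572 to 1793 with EBF1wt and 1981 to 2164 with EBF1-H240A. The stromal markers Lum and Postn were not above background on any array. All 6 progenitor markers were measured, with 3 lower and 1 higher under EBF1wt and 4 lower and 1 higher under EBF1-H240A, and their summed signal was 34560 to 36370 with Empty, 18720 to 20150 with EBF1wt and 22330 to 23350 with EBF1-H240A. Kit, the receptor by which the cells had been enriched, fell by 0.79 with EBF1wt and by 1.14 with EBF1-H240A. The 6 T-lineage markers, 5 of them called lower with each protein, summed to 9148 to 9871 with Empty, 3842 to 3884 with EBF1wt and 3249 to 3739 with EBF1-H240A. Measured erythroid markers (3 of 6, with 2 lower and 1 higher in both comparisons and with Klf1 not above background on any array) summed to 8272 to 9218, 1190 to 1325 and 826.2 to 912.9 in the same order. By gene the erythroid differences from Empty ran from -3.13 to 6.95 with EBF1wt and from -3.58 to 6.06 with EBF1-H240A. Measured mast and myeloid markers (4 of 7, with 2 lower and 2 higher in both comparisons and with Mcpt8, Fcer1a and Elane not above background) summed to 1153 to 1265, 1537 to 1611 and 2114 to 2711. Their differences from Empty ran from -3.52 to 1.47 with EBF1wt and from -3.74 to 2.04 with EBF1-H240A. The hepatocyte markers Alb, Afp, Apoa1 and Ttr were not above background on any array, and the 1 of 6 that was measured, Ahsg, read 515.7 to 528.0, 152.9 to 184.5 and 49.41 to 51.26. The part of these shifts in the members' differences was not tested.

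Of the RNA polymerase I subunits, 2 of 3 fell with each protein. Polr1b, the second-largest subunit and part of the catalytic core, read 8.97 and 8.93 with Empty, 8.45, 8.43 and 8.37 with EBF1wt, and with EBF1-H240A 8.09, 8.29 and 8.14. The groups did not overlap, and the EBF1-H240A arrays were the lowest. Its difference from Empty was -0.53 ± 0.08 SE for EBF1wt (adjusted p = 0.00192) and -0.77 ± 0.08 for EBF1-H240A (adjusted p = 0.000302). Polr1c, a subunit shared with RNA polymerase III, fell by 0.34 and 0.33. Polr1a, the largest subunit, read 10.68 and 10.49 with Empty, 10.49, 10.50 and 10.59 with EBF1wt, and with EBF1-H240A 10.40, 10.69 and 10.69. These groups overlapped, and the differences were -0.06 (95% interval -0.33 to 0.20) and 0.01 (-0.26 to 0.27).

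The transcripts of the 3 box C/D proteins fell under both forms of EBF1, by a median of -0.51 with EBF1wt and -0.67 with EBF1-H240A. Fibrillarin (Fbl), the methyltransferase of the particle, read 14.44 and 14.46 with Empty, 14.03, 14.13 and 14.01 with EBF1wt, and with EBF1-H240A 13.93, 13.96 and 14.03. Every array with EBF1 was below both Empty arrays, while the arrays of the 2 proteins overlapped. Fbl was at 76.1% of its Empty level with EBF1wt (difference -0.39 ± 0.07 SE, adjusted p of 0.00363) and at 71.8% with EBF1-H240A (-0.48 ± 0.07, adjusted p = 0.00127). Nop56, a scaffold protein of the particle, read 13.47 and 13.22 with Empty, 12.74, 12.85 and 12.84 with EBF1wt, and with EBF1-H240A 12.71, 12.68 and 12.64. The Empty arrays were the highest and the EBF1-H240A arrays the lowest, with differences of -0.53 and -0.67 from Empty. Nop58, the partner of Nop56, fell by 0.51 and 0.69.

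Transcripts of all 4 box H/ACA proteins fell under both forms of EBF1. Dyskerin (Dkc1), the pseudouridine synthase, read 8.43 and 8.37 with Empty, 7.98, 7.87 and 7.87 with EBF1wt, and with EBF1-H240A 7.68, 7.68 and 7.71. The 3 groups formed separate steps, with differences from Empty of -0.50 ± 0.06 SE (adjusted p = 0.000991) and -0.71 ± 0.06 (adjusted p = 0.000163). Gar1, a core protein of the same particle, had the largest fitted decrease of all members with EBF1wt. It read 9.41 and 9.42 with Empty, 8.83, 8.68 and 7.98 with EBF1wt, and with EBF1-H240A 8.75, 8.47 and 8.53, so that EBF1wt array 3 was far below the others. The differences were -0.91 ± 0.24 SE (adjusted p = 0.0237) and -0.83 ± 0.24 (adjusted p = 0.0293). The call for Gar1 was lost without Empty 1 or Empty 2 (adjusted p = 0.0975 and 0.0968 with EBF1wt, 0.107 and 0.111 with EBF1-H240A), and with EBF1-H240A also without EBF1-H240A 2 or 3 (0.0767 and 0.0728). The Gar1 probe, the only one kept for this gene (1), maps to chromosome 3 of mm9, from 129532258 to 129532317. Nhp2 fell by 0.58 and 0.71 and Nop10, the smallest protein of the particle, by 0.34 with each protein.

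The 6 genes of nucleolar proteins with several functions all fell, with a median of -0.57 with EBF1wt and -0.74 with EBF1-H240A. Nolc1, a chaperone of small nucleolar particles, read 10.07 and 10.18 with Empty, 9.46, 9.28 and 9.22 with EBF1wt, and with EBF1-H240A 9.16, 9.03 and 9.18. The groups did not overlap, and the differences from Empty were -0.81 ± 0.09 SE (adjusted p = 0.000776) and -1.0 ± 0.09 (adjusted p = 0.000237). On mm9 the probe for Nolc1 maps to chromosome 19, from 46157702 to 46157761. Nucleolin (Ncl), an RNA-binding protein among the most abundant of the nucleolus, read 14.32 and 14.34 with Empty, 14.10, 14.01 and 13.71 with EBF1wt, and with EBF1-H240A 13.82, 13.94 and 13.88. Both Empty arrays were the highest, and EBF1wt array 3 was the lowest of all. The Ncl differences were -0.39 ± 0.12 SE (adjusted p = 0.0352) and -0.45 ± 0.12 (adjusted p = 0.0179). With EBF1wt the Ncl call was lost without any single array other than EBF1wt 1 or EBF1wt 3 (adjusted p between 0.0517 and 0.131), and with EBF1-H240A without Empty 1, Empty 2 or EBF1-H240A 1 (0.0533 to 0.0812). The other 3 probes of Ncl fell in both comparisons, by 0.41 to 0.55 and 0.49 to 0.74.

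Nucleophosmin (Npm1), a histone chaperone that also takes part in subunit export, read 15.61 and 15.56 with Empty, 15.35, 15.18 and 15.23 with EBF1wt, and with EBF1-H240A 15.17, 15.21 and 15.14. The Empty arrays stood above the rest, with differences of -0.33 ± 0.07 SE (adjusted p = 0.00974) and -0.41 ± 0.07 (adjusted p = 0.00322). Without Empty 1 the first of these was -0.31 and was no longer called (adjusted p = 0.0594). Nucleostemin (Gnl3), a nucleolar GTPase of proliferating cells, fell by 0.59 and 0.84. The RNA helicase Ddx21 fell by 0.66 and 0.76, and Mybbp1a, a nucleolar MYB-binding protein, by 0.54 and 0.72. The Mybbp1a call with EBF1wt was lost without Empty 2 (adjusted p = 0.0540).

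Among the 13 factors of the small subunit, 11 fell with EBF1wt and 12 with EBF1-H240A. Rrp9, which binds the U3 small nucleolar RNA, read 9.29 and 9.35 with Empty, 8.53, 8.51 and 8.64 with EBF1wt, and with EBF1-H240A 8.37, 8.33 and 8.46. The 3 groups did not overlap, and the differences from Empty were -0.76 ± 0.07 SE (adjusted p = 0.000325) and -0.93 ± 0.07 (adjusted p = 0.000108). The probe for Rrp9 maps to chromosome 9 of mm9, from 106386845 to 106387461. Of the factors that join the precursor during its transcription, Utp15 fell by 0.58 and 0.57, Wdr43 by 0.50 and 0.60, and Wdr75 by 0.59 and 0.74. Factors that build the early particle fell too: Utp18 by 0.68 and 0.67, Utp20 by 0.51 and 0.74, Nop14 by 0.47 and 0.59, and the helicase Ddx10 by 0.35 and 0.38. Of the later factors, Rrp12, which takes part in export, fell by 0.57 and 0.84, Tsr1 by 0.65 and 0.70, and Nob1, the nuclease that trims the end of the small-subunit RNA, by 0.46 and 0.63. Ddx10 lost its call without Empty 1 or Empty 2 in both comparisons and, with EBF1wt, without EBF1wt 2 (adjusted p 0.0529 to 0.12). Rrp12 lost its call with EBF1wt without Empty 1 or Empty 2 (0.0742 to 0.0888).

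Bysl, a factor of late small-subunit maturation, was called with EBF1-H240A and not with EBF1wt. It read 10.26 and 10.04 with Empty, 10.01, 10.05 and 10.04 with EBF1wt, and with EBF1-H240A 9.84, 9.76 and 9.87. The EBF1-H240A arrays were below all others, while EBF1wt overlapped Empty. The differences were -0.12 ± 0.08 SE (adjusted p = 0.310) and -0.33 ± 0.08 (adjusted p = 0.0159), and the difference between the proteins did not pass the test (-0.21, 95% interval -0.38 to -0.04, adjusted p = 0.143). Without Empty 1 the difference with EBF1-H240A was -0.21 and was not called (adjusted p = 0.0881), and under scaling to the median that with EBF1wt was called (adjusted p = 0.0489). The probes of Bysl disagree on EBF1wt: a dimmer one fell with both proteins (-0.44, adjusted p = 0.0179, and -0.54, adjusted p = 0.00615, limma fit of all kept probes), and the remaining one gave -0.14 (adjusted p = 0.258) and -0.41 (adjusted p = 0.00808). Values of Bysl, Polr1a and Heatr1 on every array are given because their calls stood apart, a choice made after their values were seen.

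Of the 9 factors of the large subunit, 7 fell with EBF1wt and 8 with EBF1-H240A. Bop1, which forms a complex with Pes1 and Wdr12, read 11.24 and 11.07 with Empty, 10.58, 10.64 and 10.68 with EBF1wt, and with EBF1-H240A 10.50, 10.54 and 10.71. Every array with EBF1 was below both Empty arrays, and the 2 proteins overlapped. Bop1 fell by 0.53 (SE 0.09, adjusted p = 0.00397) and 0.57 (SE 0.09, adjusted p = 0.00222), and Wdr12 fell by 0.40 and 0.62. Nop2, an RNA methyltransferase, fell by 0.57 with each protein. Rrs1 fell by 0.57 and 0.67, the helicase Ddx18 by 0.58 and 0.67, Nop16 by 0.39 and 0.48, and Ebna1bp2 by 0.36 and 0.47.

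Rrp1b, which binds large-subunit precursors, read 7.90 and 8.12 with Empty, 7.54, 7.22 and 7.90 with EBF1wt, and with EBF1-H240A 7.13, 7.18 and 7.19. EBF1wt array 3 was as high as Empty 1, while the EBF1-H240A arrays were below all others. Rrp1b differed from Empty by -0.46 ± 0.19 SE with EBF1wt, which did not pass (adjusted p = 0.0952), and by -0.84 ± 0.19 with EBF1-H240A (adjusted p = 0.00981). Leaving out EBF1wt 3 brought a call for EBF1wt (-0.63, adjusted p = 0.0139), and leaving out Empty 2 ended that for EBF1-H240A (-0.74, adjusted p = 0.0667). Under scaling to the median the EBF1wt difference was also called (adjusted p = 0.0481). Of the 3 other Rrp1b probes, 2 fell with both proteins in the fit of all kept probes. They gave -0.50 (adjusted p = 0.00257) and -0.71 (0.00665) with EBF1wt, and with EBF1-H240A -0.72 (0.000442) and -0.78 (0.00352). The dimmest read 0.43 and 0.61 and was not called (adjusted p = 0.442 and 0.252). Nop16 and Ebna1bp2 lost their calls with EBF1wt without Empty 1 or Empty 2 (adjusted p 0.0613 to 0.0952), and Nop10 lost its call without Empty 1 (0.10 and 0.0931) and, with EBF1wt, without EBF1wt 3 (0.0503). In all, leaving out 1 array ended the call of 9 members with EBF1wt and of 6 with EBF1-H240A, and the called count was lowest without Empty 1, at 25 and 30.

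**Figure D2:**
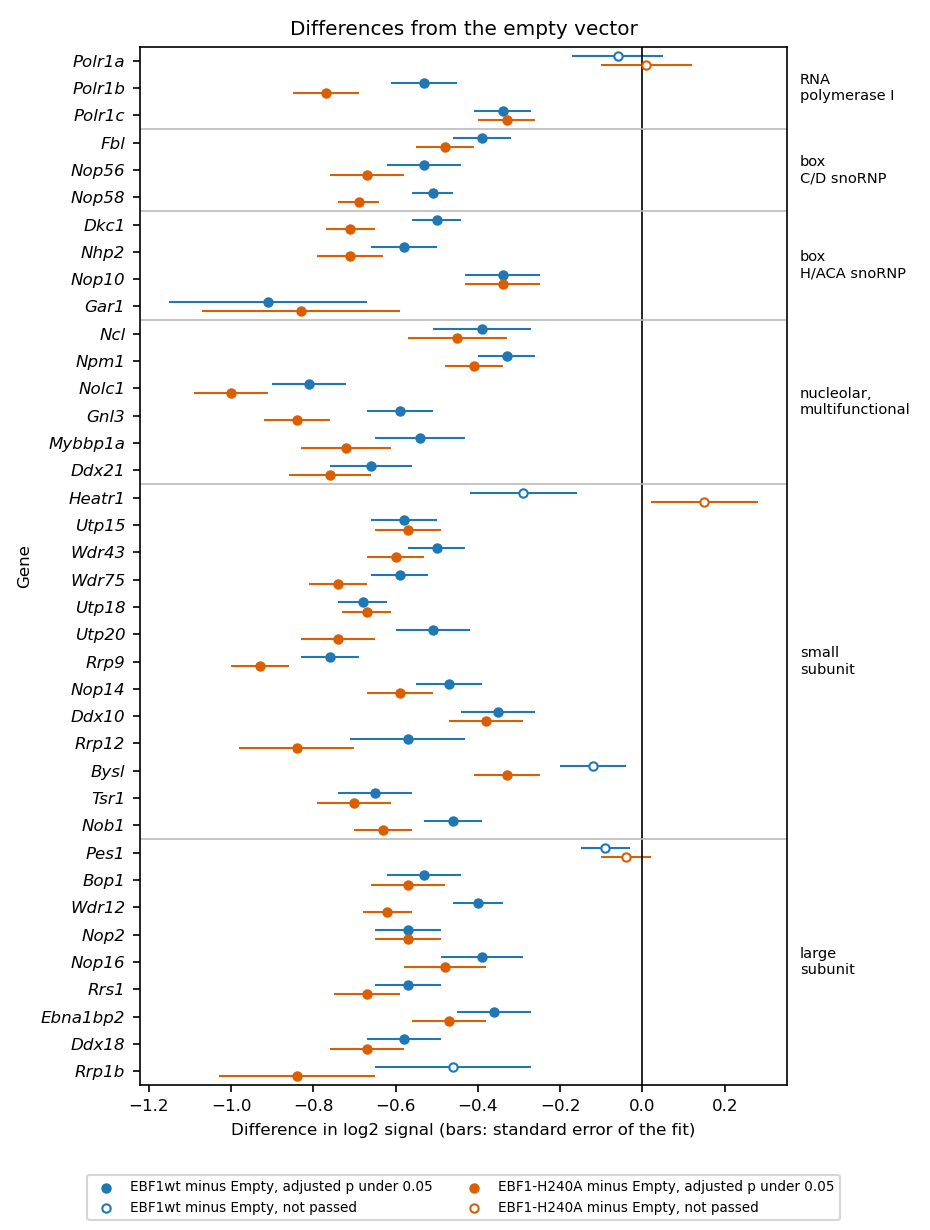
Fitted difference in log2 signal from Empty for each of the 38 genes with EBF1wt (blue) and EBF1-H240A (orange), with the standard error of the fit as bars; filled points had an adjusted p under 0.05 and open points did not. Points lie between -0.91 and -0.06 with EBF1wt and between -1.0 and 0.15 with EBF1-H240A.

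The members that passed with neither protein were Polr1a, Heatr1 and Pes1. Pes1, a core factor of the large subunit, read 11.67 and 11.54 with Empty, 11.55, 11.47 and 11.52 with EBF1wt, and with EBF1-H240A 11.54, 11.58 and 11.57. The groups overlapped, with differences of -0.09 (95% interval -0.24 to 0.06) and -0.04 (-0.19 to 0.11). Its other probe, at 3879895 to 3879954 on chromosome 11 of mm9, fell with both proteins, with differences of -0.52 and -0.43 (adjusted p = 0.00284 and 0.00509 in a limma fit of all kept probes). The probe that stood for Pes1 lies at 3878919 to 3878978, and the 2 probes disagree. With the mean over probes or with scaling to the median, Pes1 was called lower with both proteins (adjusted p = 0.0103 to 0.0355).

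Heatr1, a large scaffold protein that joins the precursor during transcription, read 10.37 and 10.36 with Empty, 9.99, 10.01 and 10.24 with EBF1wt, and with EBF1-H240A 10.47, 10.36 and 10.72. All EBF1wt arrays were below Empty, and the EBF1-H240A arrays were level with or above it. The differences were -0.29 (95% interval -0.59 to 0.01, adjusted p = 0.115) and 0.15 (-0.14 to 0.45, adjusted p = 0.364). With EBF1wt, Heatr1 was called lower after another background correction (normexp), under scaling to the median and with the replicate number as a block (adjusted p = 0.0206 to 0.0328). Another Heatr1 probe fell with EBF1wt (-0.51, adjusted p = 0.0207) and read -0.04 with EBF1-H240A (adjusted p = 0.835, fit of all kept probes), and the remaining probe gave -0.23 and -0.02. The other probe of Polr1a gave -0.17 and 0.03 and was not called.

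Over the 38 genes, 65 probes were kept, with 19 genes read by 1 probe and 19 by several. Of the 27 probes that did not represent their gene, 26 had a lower fitted value with EBF1wt than with Empty and 21 were called lower. With EBF1-H240A 25 had a lower fitted value and 23 were called, and 0 were called higher in either comparison. These calls come from the fit of all kept probes, and the share of all kept probes called lower in it is not given here. Probes of 1 gene share its RNA and are not replicates.

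When EBF1-H240A was compared with EBF1wt directly, 0 of the 38 members were called by limma in either direction, against 2.73% of all genes called lower and 3.64% called higher. At an unadjusted limma p under 0.05 there were 11 of the 38 members, and 3722 of all 16330 genes, 1609 of these lower with EBF1-H240A. Of the 11 members, 10 were lower with EBF1-H240A (Polr1b, Nop58, Dkc1, Nolc1, Gnl3, Utp20, Rrp9, Bysl, Nob1 and Wdr12) and Heatr1 was higher. The median difference was -0.10, against 0.02 over all genes. Of the 38 members 29 were below 0, and of all 16330 genes 7372 were. On 16 members all EBF1-H240A arrays lay below all EBF1wt arrays, as they did for 12.9% of all genes. The 95% interval of the difference held 0 for 27 members, and over the 38 members the bounds ran from -0.78 to 0.71.

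Dkc1 had the smallest adjusted p of the direct comparison, at -0.22 (95% interval -0.35 to -0.09, adjusted p = 0.0638). The most positive difference was that of Heatr1, at 0.44 (0.18 to 0.71, adjusted p = 0.0693), and another of its probes gave 0.47 (adjusted p = 0.0669). Rrp1b had the most negative, at -0.39 (-0.78 to 0.01, adjusted p = 0.230). Nop2 read the same with both proteins to 2 decimals (0.00, -0.17 to 0.17), and Utp18 differed by 0.02 (-0.12 to 0.15). Without EBF1wt 3, Gnl3 was called lower (adjusted p = 0.0412).

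**Figure D3:**
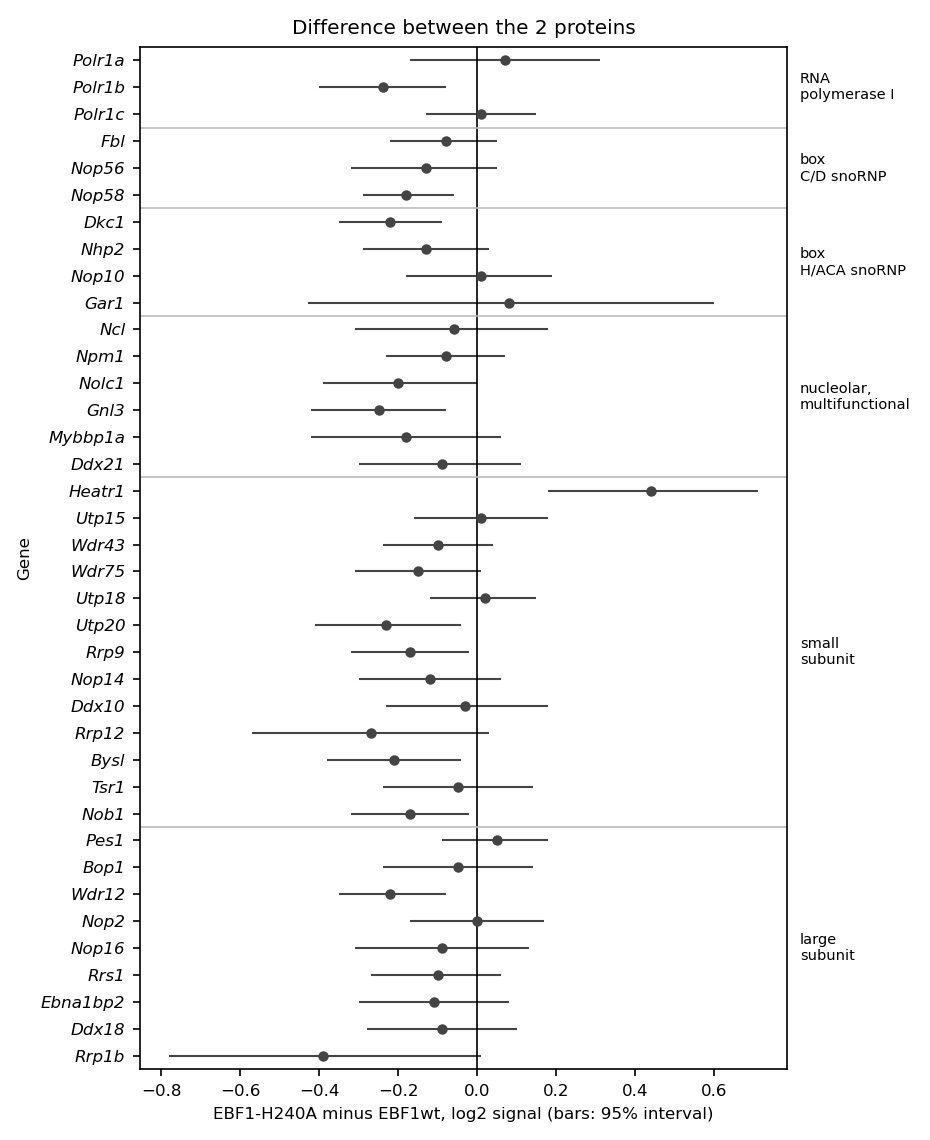
Difference in log2 signal between EBF1-H240A and EBF1wt (n = 3 arrays each) for each of the 38 genes, with its 95% interval as bars and a line at 0. Most points lie to the left of 0, and Heatr1 lies farthest to the right.

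The pathway holds many factors beyond these 38, and 117 other ribosome biogenesis genes were measured. With EBF1wt 69 of the 117 fell, 1 rose and 47 did not pass, with a median difference of -0.31. With EBF1-H240A 83 fell, 0 rose and 34 did not pass, with a median of -0.41. Among called genes the largest decreases with EBF1wt were those of Ubtf, the factor that activates RNA polymerase I on ribosomal DNA (-0.71), of Urb1 (-0.71) and of Rrp15 (-0.65), both of the large subunit. With EBF1-H240A the largest among called genes were those of Rrp15 (-0.90), Ubtf (-0.76) and Ltv1, an export factor of the small subunit (-0.76). Ltv1 was not called after normexp (-0.19, adjusted p = 0.213).

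Ubtf read 10.60 and 10.59 with Empty, 9.87, 9.84 and 9.93 with EBF1wt, and with EBF1-H240A 9.83, 9.79 and 9.89. Both Empty arrays stood above all arrays with EBF1, and the arrays of the 2 proteins overlapped. Taf1c, a subunit of the RNA polymerase I selectivity factor, was the gene called higher with EBF1wt (0.28, adjusted p = 0.0283). The Taf1c call was lost without Empty 1 (0.154), Empty 2 (0.0516), EBF1wt 1 (0.0660) or EBF1wt 3 (0.0701). It was also lost under 6 other settings (0.0598 to 0.118). Between the proteins 1 of the 117 was called, Urb2, a nucleolar partner of Urb1, which was lower with EBF1-H240A by -0.43.

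RNA polymerase III makes the smallest ribosomal RNA and the transfer RNAs. Of its 10 measured subunits 5 fell with each protein (Polr3b, Polr3d, Polr3e, Polr3g and Polr3k) and 0 rose, with medians of -0.26 and -0.28.

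The cytosolic ribosomal proteins, the structural parts of the ribosome itself, gave other values. Of 79 measured, 1 rose (Rpl27a, 0.99) and 1 fell (Rpl14, -0.22) with EBF1wt, and 77 did not pass. With EBF1-H240A 2 rose (Rpl27a, 1.21, and Rpl31, 0.22) and 0 fell. The Rpl14 call was lost without Empty 1, EBF1wt 2, EBF1wt 3 or EBF1-H240A 1 (adjusted p = 0.0512 to 0.163) and under 6 other settings (0.0551 to 0.178). That of Rpl31 was lost without Empty 1 (0.0726) or Empty 2 (0.0769) and under 5 other settings (up to 0.432). The medians were 0.01 and 0.06, but the Empty arrays themselves lay at 0.12 and -0.12 around their mean. Without Empty 1 the medians were 0.13 and 0.18 with 4 and 11 called higher, and without Empty 2 they were -0.11 and -0.07. Under scaling to the median they were -0.09 and -0.08, with 5 and 9 called lower, so no direction is given for this list. The medians of the 38 members kept their sign under each of these settings.

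**Figure D4:**
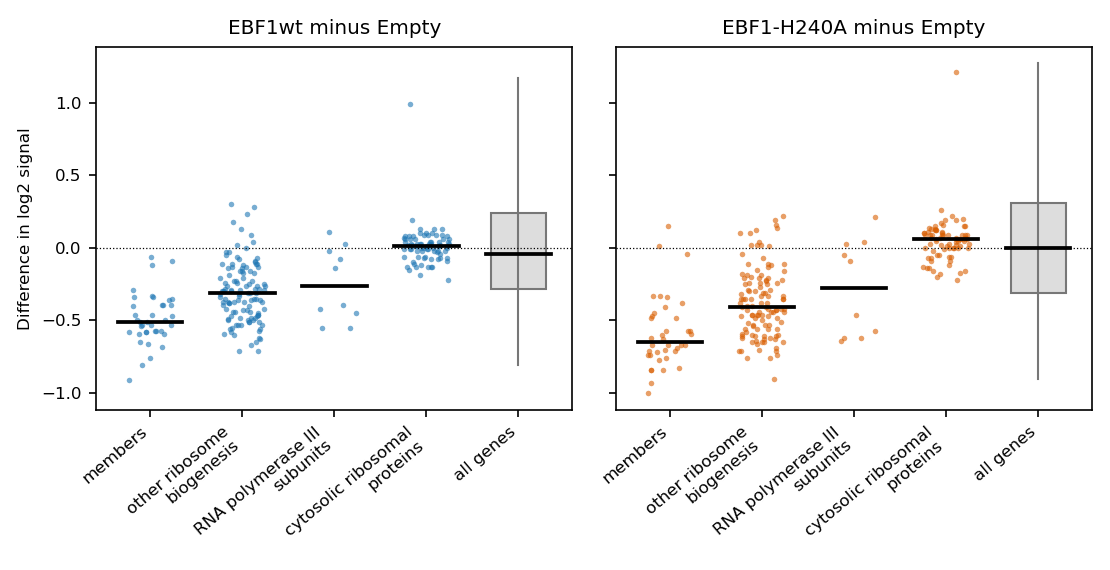
Difference in log2 signal from Empty with EBF1wt (left) and EBF1-H240A (right) for the 38 members, 117 other ribosome biogenesis genes, 10 RNA polymerase III subunits and 79 cytosolic ribosomal proteins; points are genes and black lines are medians. For all 16330 genes the box spans the 25th to 75th percentile and the whisker the 5th to 95th; the members' medians are -0.51 and -0.65.

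The MYC-family genes moved in opposite directions. Mycn read 12.96 and 12.76 with Empty, 9.80, 9.89 and 10.07 with EBF1wt, and with EBF1-H240A 9.89, 10.13 and 9.90. Its arrays with EBF1 were far below Empty, with differences of -2.94 ± 0.12 SE (adjusted p = 8.79e-06) and -2.88 ± 0.12 (adjusted p = 8.12e-06). Myc read 9.73 and 9.84 with Empty, 10.57, 10.65 and 10.67 with EBF1wt, and with EBF1-H240A 10.78, 10.66 and 10.49. It rose on all 6 arrays with EBF1, by 0.84 ± 0.10 SE (adjusted p = 0.000765) and 0.86 ± 0.10 (adjusted p = 0.000565). Mycl fell by 1.47 and 1.53. Max, the partner that MYC proteins need to bind DNA, differed by -0.08 (95% interval -0.27 to 0.11) and -0.20 (-0.39 to -0.02, adjusted p = 0.0752), and without Empty 1 the second was called (-0.31, adjusted p = 0.0290). The direct difference between the proteins was 0.06 for Mycn (-0.20 to 0.31) and 0.01 for Myc (-0.19 to 0.22), and neither passed the test. Their part in the members' differences was not tested.

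**Figure D5:**
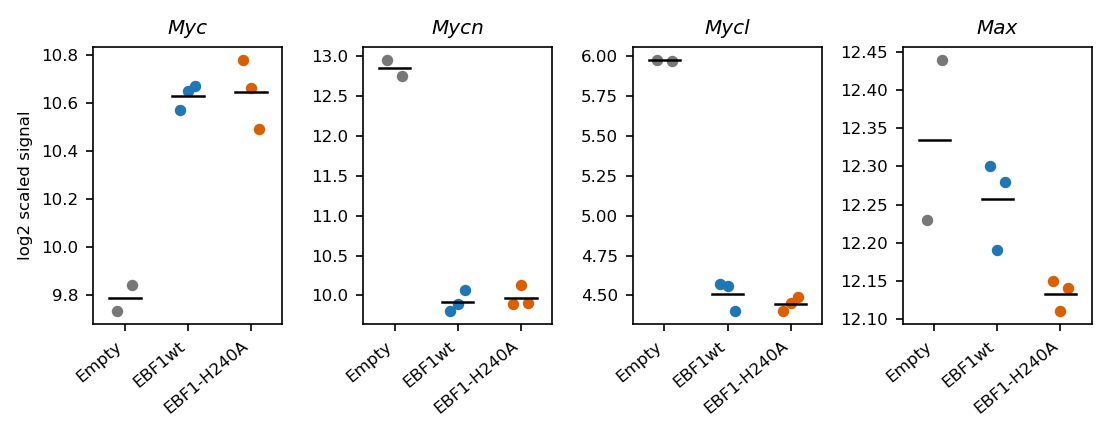
Log2 scaled signal of Myc, Mycn, Mycl and Max on each array by group, with each point an array, each line the group mean and a separate vertical axis per gene that does not start at 0. Myc is higher and Mycn and Mycl are lower on all arrays with EBF1.

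Because most members moved together, their promoters were searched for CACGTG, the E-box that MYC and MAX bind. Windows of 300 bases, 250 before and 50 after the annotated start, came from RefSeq (GRCm38.p6) and were found for 33 of the 38 members. CACGTG, which reads the same on both strands, was in the windows of 7 members (21.2%): Mybbp1a, Utp18, Utp20, Wdr43, Tsr1, Pes1 and Nop2. It was in 20 of 95 other ribosome biogenesis genes (21.1%), in 6 of 58 ribosomal protein genes (10.3%), in 11.0% of the 10904 tested genes with a window and in 8.09% of all 27025 genes with one. A match describes the letters and shows no binding. TCCCNNGGG, a form of the EBF1 motif searched on both strands, was in 2 members (6.06%), Utp18 and Tsr1, and in 9.44% of the tested genes with a window. Both members also hold the E-box and are printed below, where the TCCCNNGGG match is not in capitals. A window without it says nothing of EBF1 binding elsewhere.

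The stretches from 120 bases before to 30 after the start are printed for Utp18, Tsr1 and Nop2, the E-box members with the largest decreases with EBF1wt, and for Pes1, whose brightest probe did not pass. This choice was made after their values were seen. Capitals mark CACGTG, which begins at -20 in Utp18, 24 in Tsr1, -60 in Nop2 and 2 in Pes1, counted from the start site as 0, and each is written 5′ to 3′ along the gene's strand. Utp18 is on the minus strand at chr11:93885737-93885886, and the other 3 are on the plus strand, Tsr1 at chr11:74897960-74898109, Nop2 at chr6:125131763-125131912 and Pes1 at chr11:3963855-3964004.
Utp18: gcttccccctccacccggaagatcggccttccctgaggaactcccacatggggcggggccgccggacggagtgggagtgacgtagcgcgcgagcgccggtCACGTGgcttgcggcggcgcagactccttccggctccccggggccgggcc
Tsr1: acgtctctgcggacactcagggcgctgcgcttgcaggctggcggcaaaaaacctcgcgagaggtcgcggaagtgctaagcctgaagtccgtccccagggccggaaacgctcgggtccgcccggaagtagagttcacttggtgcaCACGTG
Nop2: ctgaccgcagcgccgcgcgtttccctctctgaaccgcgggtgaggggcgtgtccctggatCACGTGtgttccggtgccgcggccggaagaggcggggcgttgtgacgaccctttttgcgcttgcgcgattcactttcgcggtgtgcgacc
Pes1: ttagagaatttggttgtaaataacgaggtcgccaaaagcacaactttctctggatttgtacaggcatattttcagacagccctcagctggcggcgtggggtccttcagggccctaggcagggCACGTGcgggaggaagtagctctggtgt

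Of the 7 members with the E-box, 6 fell with both proteins, and of all 38 members 33 did. Most members whose window was found and lacked the E-box fell as well. Members without a window were not searched, and a relation between the E-box and the differences was not tested. The E-box member that was not called is Pes1, whose brightest probe differed by -0.09 and -0.04 and whose other probe fell by 0.52 and 0.43.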

How the data were processed

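The deposited scanner output of 8 one-colour Agilent arrays was used. The submitters' processing notes name Agilent Feature Extraction 10.5.1.1 as its source. The signal used is a linear intensity from which a spatial trend was removed, per the file headers, while other columns are flags of 0 or 1 for spots above background, saturated or outlying, and the annotation is mm9. The authors' deposited value table holds log2 values of the same arrays, normalized between arrays with the method not given in the sources used here. The medians of its columns were 4.90 to 4.93, its columns correlated at r = 0.972 to 0.979 with the scanner values of the same array and ran in their direction, its centring is not known, and it served only as an alternative.

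Outlier and control spots were left out, intensities were scaled to a common 75th percentile (231.8 to 325.9 before scaling), floored at 1 and taken to log2, and spots of a probe were averaged. Of 41174 probes, 25010 were well above background on at least 2 of 8 arrays, had a value on every array and were kept. A further 24 passed the background filter but lacked a value and were left out. Names were updated with RefSeq tables of GRCm38.p6 (27808 probes by accession, 5509 by symbol, 379 by older symbol, 7478 left as in the files). The brightest kept probe stood for each of 16330 genes, of which 5962 had several. There were 0 saturated spots, and the number of arrays limits the precision.

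All 8 arrays entered 1 limma 3.58.1 fit in R 4.3.3 (lmFit, eBayes; 5 residual and 1.8 prior degrees of freedom) with Benjamini-Hochberg adjustment, tested on simulated data. Samples were grouped by the labels' vector. Same-numbered replicates did not deviate together (correlations -0.332 to 0.193), so no pairing was used. Arrays of different groups correlated at -0.228 to 0.416 on the same slide, mostly above 0, and at -0.452 to 0.344 on different slides, mostly below 0. Slide was left out of the main fit and entered an alternative as a block. The 2 Empty arrays deviate from their mean by equal and opposite amounts, so these correlations are not independent. The 38 members, the other lists (other ribosome biogenesis, cytosolic ribosomal proteins, RNA polymerase III subunits, MYC factors and markers of progenitor, B, T, stromal, hepatocyte, erythroid, and mast and myeloid cells) and the tests were chosen with earlier results of these data known. Some listed markers are not reported here. Values on every array were given for the 3 called members with the largest increases and the 3 with the largest decreases per comparison, for Ncl, Npm1, Fbl, Polr1b, Nop56, Pes1, Bop1 and Dkc1, and for genes said in the text to be chosen later. Of the other ribosome biogenesis genes the 3 largest called changes in each direction are named. Further RNA polymerase I subunits were named after their values were seen. Promoter windows were to be printed for up to 4 named members with CACGTG. Alternatives were other background correction, scaling, filters, probe rules, array sets and blocks.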

Additional observations from a re-analysis of the deposited data

Results flagged for a closer look

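Urb2, a nucleolar factor of the large subunit outside the 38 members, differed between the 2 proteins, with EBF1-H240A minus EBF1wt at -0.43 (95% interval -0.60 to -0.25, adjusted p = 0.0221, limma). It read 8.16 and 8.29 with Empty, 7.95, 7.84 and 7.94 with EBF1wt, and with EBF1-H240A 7.58, 7.49 and 7.38, so all EBF1-H240A arrays were the lowest. The call was lost without EBF1wt 1, 2 or 3 or without EBF1-H240A 2 or 3 (adjusted p = 0.0562 to 0.0859). It was also lost with normexp, in the deposited table, with no filter on dim probes, with slide as a block and with the replicate block (0.0567 to 0.09).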

How the results depend on the processing

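With EBF1wt, 21 of the 33 called members kept their call under every alternative other than the within-slide fits, and with EBF1-H240A 29 of 35 did. None (0) of the called members turned its sign in any alternative run. Within slide 1 and within slide 2, 0 members were called lower with either protein. Leaving out 1 array gave 25 to 33 members lower with EBF1wt, 30 to 35 with EBF1-H240A, and 0 to 1 in the direct comparison. The median with EBF1-H240A was -0.54 with normexp, -0.79 with scaling to the median and -0.59 in the deposited table. Scaling to the median moved the median of all genes to -0.13 and -0.14. In the direct comparison 1 member was called higher (Heatr1) with normexp, with probes above background on all arrays and with the replicate block, and 1 was called lower with quantile normalization, 3 with scaling to the median and 1 with probes above background on all arrays. With the replicate number as a block, 29 members were lower with EBF1wt and 33 with EBF1-H240A, and same-numbered samples share only a number. Outside the within-slide and leave-one-out fits, the member calls lost with EBF1wt were those of Fbl, Polr1b, Mybbp1a and Ebna1bp2 in the deposited table, Utp15 with normexp, Ncl, Gar1, Nop10, Nop16, Ddx10, Rrp12 and Ebna1bp2 with no filter, Ncl, Gar1, Nop10 and Nop16 with only the groups compared, Ncl with slide as a block, and Ncl, Nop10, Nop16, Ddx10 and Rrp12 with the replicate block (adjusted p = 0.0501 to 0.0936). With EBF1-H240A they were Bysl with normexp, the deposited table or no filter (up to 0.177), Ncl and Ddx10 with no filter or the replicate block, and Gar1 and Nop10 with no filter (0.0507 to 0.0649). Over all genes the direct comparison called 1039 genes, 338 with no filter, 650 in the deposited table, 647 with slide as a block, 360 with the replicate block and 366 to 676 without 1 array among those that differed by over 1.5 times. Within slides 133 and 398 genes were called with EBF1wt, 1091 and 321 with EBF1-H240A and 0 and 0 in the direct comparison. The cause was not tested. The 2 Empty arrays limit every difference from Empty.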
